A study of Rattus norvegicus with 63 samples.

Results

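rno-miR-96, rno-miR-182 and rno-miR-183 are the 3 miRNAs of a single chromosomal cluster, and they were picked by name from the 350 rat miRNAs listed on the array. Of the 3, only miR-96 gave a signal that could be measured in rat liver. It was called higher in rats given cyproterone acetate, phenobarbital sodium and piperonylbutoxide, and on the arrays filed as diethylstilbestrol. In none of 15 compounds was it called lower. Only the cyproterone acetate call was kept under every alternative processing. The others were lost when each compound was fitted with its own controls alone, and when its rat 3 was left out. miR-182 and miR-183 were detected on 0 of 63 arrays.

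A miRNA is cut from a hairpin in a longer transcript and guides the Argonaute complex to mRNAs that pair with its seed, the bases 2 to 8 of the mature strand. Hairpins that lie close together on the same strand are commonly transcribed together, although their mature products can accumulate to different levels. The miR-183 cluster is known above all from sensory organs such as retina and inner ear and from epithelial tumours, and in normal liver it is regarded as low. FoxO transcription factors are among the best studied targets of miR-96 and miR-182.

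In the RefSeq annotation of the rat assembly GRCr8, the 3 hairpins lie on the minus strand of chromosome 4 within 3908 bases, and none of them overlaps a protein-coding gene. In the order of transcription, Mir183 (chr4:59756044-59756153) is followed after 97 bases by Mir96 (chr4:59755841-59755946) and after a further 3533 bases by Mir182 (chr4:59752246-59752307). The nearest protein-coding genes are Nrf1, 14079 bases away on the side of Mir182, and Ube2h, 45948 bases away on the side of Mir183. The array names the miRNAs without an arm and lists no passenger strand of these hairpins. The mature strands that RefSeq gives for these names are shown because they make plain how alike the 3 products are, with the seed in capitals.
rno-miR-183-5p: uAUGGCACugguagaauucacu
rno-miR-96-5p: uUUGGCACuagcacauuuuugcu
rno-miR-182: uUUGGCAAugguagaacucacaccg
Counted from 1 at the 5′ end, the seeds of miR-96 and miR-182 differ by C8A and those of miR-96 and miR-183 by U2A. Outside the seed, miR-182 resembles miR-183 more than miR-96. Aligned from the 5′ end without gaps, miR-182 shared 13 of 15 bases outside the seed with miR-183 and 6 of 16 with miR-96, while miR-96 and miR-183 shared 7 of 15. None of the 724 mature rat miRNAs in the RefSeq table other than these had any of the 3 seeds, and bases 2 to 7 were common to miR-96 and miR-182 only.

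The study treated male Wistar Hanover rats of 8 to 10 weeks by oral gavage and profiled liver RNA, 1 single-colour Agilent array per rat, with 3 rats in each of 15 compound groups and 6 vehicle control groups. Its aim was to tell genotoxic carcinogens (GC), non-genotoxic carcinogens (NGC) and non-carcinogens (NC) apart by early changes in liver. Compounds in methylcellulose (MC) or corn oil (CO) were each compared with the control set that their label names. The methods state that the 3 rats of a group were taken from 5 for their liver histopathology, so the groups are not random draws of treated animals.

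The NGC were acetamide (AA, 3000 mg/kg/day, 14 days), dehydroepiandrosterone (DHEA, 600 mg/kg/day, 14 days), methylcarbamate (Mcarb, 400 mg/kg/day, 14 days) and methapyrilene HCl (MPy, 60 mg/kg/day, 7 days), all against MC set 1. Diethylstilbestrol (DES, 10 mg/kg/day, 3 days), piperonylbutoxide (PBO, 1200 mg/kg/day, 3 days) and ethionine (ETH, 200 mg/kg/day, 14 days) were NGC compared with MC set 5, and phenobarbital sodium (PB, 14 days, its dose given in the study's methods but not in the labels) was an NGC compared with MC set 6. The GC were C.I Direct Black (CIDB, 146 mg/kg/day) and dimethylnitrosamine (DMN, 4 mg/kg/day), both for 7 days against CO set 3. The NC were cefuroxime (CFX, 250 mg/kg/day) and nifedipine (Nif, 3 mg/kg/day), both for 14 days against MC set 2. Cyproterone acetate (CPA, 100 mg/kg/day, 14 days, against CO set 4), thioacetamid (TAA, 19.2 mg/kg/day, 7 days) and Wy-14643 (Wy, 60 mg/kg/day, 3 days), the last 2 against MC set 1, had no class. The labels give 7 days for CO set 3 and 14 days for all other control sets, whereas the methods describe controls matched in time. If the labels hold, the compound cannot be told apart from the shorter dosing for DES, PBO, Wy, MPy and TAA. miR-122, the miRNA that defines hepatocytes, was detected on all 63 arrays.

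The deposited table of normalized values and the scanner files disagreed for 15 of 63 samples. Relative to the scanner files, DES and DHEA were exchanged in the table, where each held the readings filed under the other. In the same sense 3 control groups were rotated. MC set 1 of the table held the readings filed as MC set 5, its MC set 5 those of MC set 2 and its MC set 2 those of MC set 1. Whether the table or the scanner files are right was not settled here. Values below use the scanner files under their own labels. All comparisons but those of CPA, PB, CIDB and DMN involve these groups. With arrays grouped as in the table, miR-96 was called higher in CPA, PB, PBO and DHEA and in no other compound. The share of all miRNAs called moved more, from 37% to 17.9% in DES, from 18.5% to 37% in DHEA, from 8.64% to 14.8% in PBO, from 13.6% to 2.47% in AA, from 2.47% to 0.617% in Mcarb, from 25.9% to 11.1% in Wy, from 19.1% to 12.3% in MPy, from 21.6% to 7.41% in TAA and from 16% to 15.4% in ETH, and it stayed at 0% in CFX and Nif.

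Net signal is the brightness of a miRNA's spots after subtraction of the background by the scanner software, averaged over its 20 spots, in scanner units. For miR-96 it ran from 4.02 to 66.5 with a median of 20.8 over the 63 arrays, and it exceeded the 95th percentile of the array's negative control spots on 49 arrays. miR-182 ran from -7.16 to 1.24 with a median of -2.38. miR-183 ran from -3.39 to 7.56 with a median of 1.15. Neither exceeded that percentile, which had a median of 9.31, on any array. The mean of the negative control spots had a median of -1.40.

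**Figure D1:**
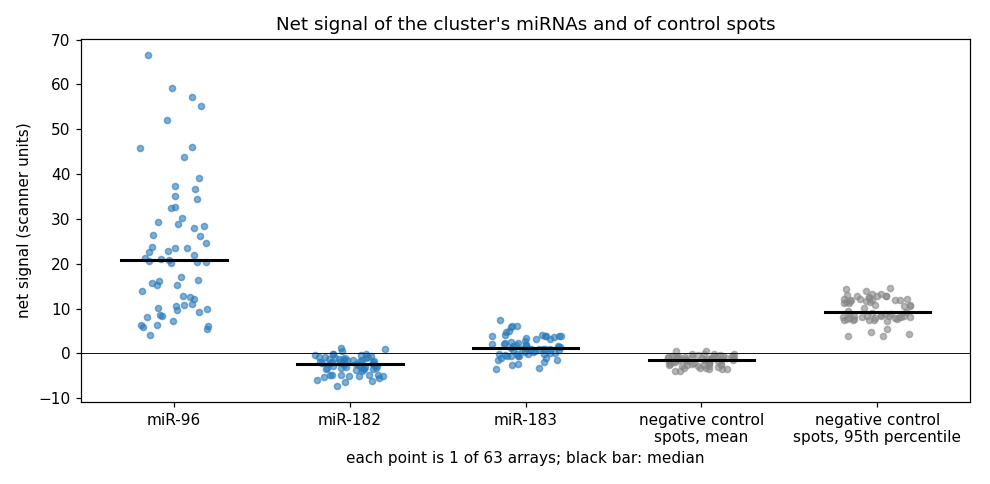
Net signal (scanner units) of miR-96, miR-182 and miR-183 and the mean and 95th percentile of the negative control spots, each point 1 of 63 arrays and each black bar a median. miR-96 spans 4.02 to 66.5, whereas miR-182 and miR-183 reach at most 1.24 and 7.56, and each lies below the 95th percentile of the negative control spots of its own array.

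The scanner software marked miR-96 as detected on 39 of 63 arrays, 33 of 45 from treated rats and 6 of 18 from control rats. The stricter mark of the software, well above background, was held by a majority of the spots of 1 or both of its 2 probes on 26 arrays. In CO set 3, CO set 4, MC set 6, DMN and ETH it was detected in no rat. It was detected in all 3 rats of AA, CFX, CPA, MPy, Nif, PBO, TAA, Wy and MC set 2. CO set 3, CO set 4 and MC set 6 were all scanned on day 1, and the 6 detected control rats on later days. CPA, also scanned on day 1, was detected in all rats, and ETH, scanned on day 2, in none. The part of scan day in these marks was not tested. miR-96 was thus a dim miRNA near the detection limit of the array. The 2 probes moved together over the 63 arrays (Pearson r = 0.971, a description), and their log2 fold changes in a compound differed by at most 0.07.

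The level of miR-96 was highest in CPA and lowest in ETH, where no rat had it detected. On the log2 scale of normalized brightness, with no background subtracted, CPA had 7.86 ± 0.08 and ETH 7.46 ± 0.03 (SD, n = 3), and the other 19 groups lay between. After CPA came PBO (7.73 ± 0.09), DES (7.72 ± 0.15), PB (7.68 ± 0.09), Wy (7.67 ± 0.08), MPy (7.63 ± 0.08) and TAA (7.62 ± 0.05). Below these lay Nif, AA, MC set 2, CFX, CIDB, MC set 1, Mcarb, MC set 5, CO set 3, DMN, CO set 4, DHEA and MC set 6, from 7.60 down to 7.48. Only the step from CPA to PBO, 0.13, exceeded the pooled SD of 0.06, and all other neighbours in this order lay within it. The 2 corn oil control sets differed by 0.03 ± 0.05 (SE, limma, adjusted p = 0.987), and no methylcellulose control set differed from another (lowest adjusted p = 0.175, MC set 2 against MC set 6). MC set 6, the only reference of PB, stood apart in other miRNAs. Against MC sets 1, 2 and 5, 20.4%, 6.79% and 9.26% of miRNAs were called, where the other 4 pairs of control sets had 0%. No array of MC set 6 shared a slide or a scan day with another methylcellulose control, so the set cannot be told apart from these.

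**Figure D2:**
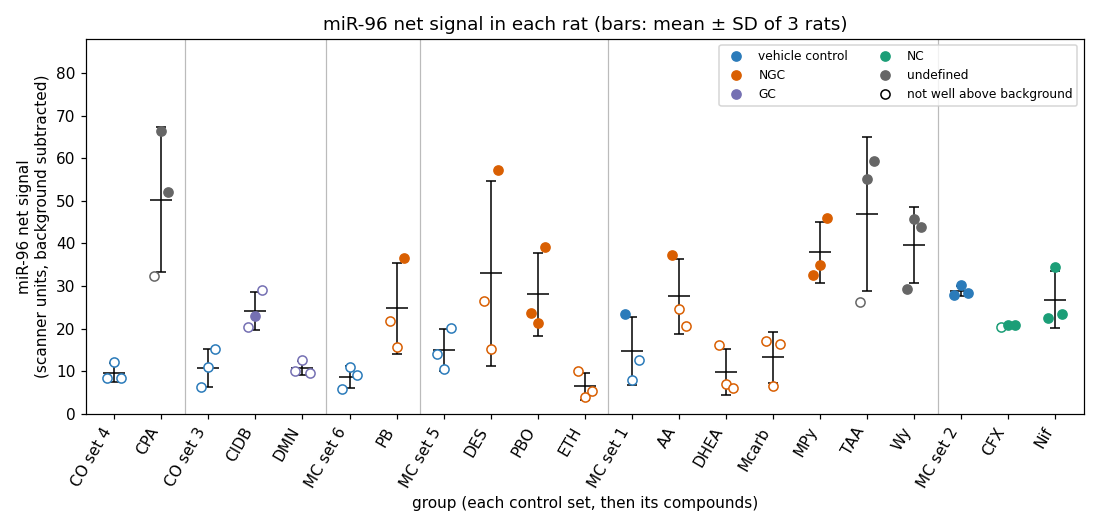
Net signal of miR-96 (scanner units, linear axis) in each rat, with each control set followed by its compounds and bars for the mean ± SD of 3 rats. Filled points are rats in which miR-96 was well above background. The 3 CPA rats lie between 32.4 and 66.5, above all 3 rats of CO set 4.

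miR-96 was called in 4 of 15 comparisons, higher each time (limma over 21 groups, Benjamini-Hochberg over 162 miRNAs, adjusted p under 0.05), and lower in 0 of 15. At an unadjusted p under 0.05, Wy joined these 4 and no compound was lower. Called were CPA, PB, PBO and DES, that is 3 of 8 NGC, 1 of 3 compounds without a class, 0 of 2 GC and 0 of 2 NC. These counts stand beside shares of all miRNAs called that ran from 3.09% in PB to 37% in DES among the 4 compounds with a call, and from 0% in both NC to 25.9% in Wy among the others. In bulk liver, fewer cells of a type and less RNA per cell cannot be told apart. With the background-subtracted signal, scaled on each array to the miRNAs detected on all arrays, the split was 7 higher and 1 lower.

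The widest difference was that of CPA, a synthetic progestin with antiandrogenic action. The net signal of miR-96 was 32.4, 66.5 and 52.0 in the 3 CPA rats and 8.33, 12.2 and 8.47 in the 3 rats of CO set 4. All CPA rats lay above all controls, and rat 1 was the lowest of the 3. The log2 fold change was 0.35 ± 0.05 (SE, n = 3 against 3, limma, adjusted p = 5.78e-07). miR-96 was well above background in 2 of 3 CPA rats and in none of the controls, so the fold is a bound, at least 1.22-fold higher. On this contrast 5.56% of the miRNAs tested were called. The 6 arrays were on 1 slide and were scanned on the same day, and the call was kept under all 16 alternatives and without any 1 of the 63 rats.

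On other scales the same difference had larger values. It was 2.49 (log2) with the background-subtracted signal scaled to the always detected miRNAs and 2.42 in the authors' value table, whose values followed background-subtracted signal more nearly one to one than unsubtracted brightness although the methods name no background step. PB gave 1.87 and 1.503 on these scales and PBO 1.54 and 1.03. No control rat of CPA, PB or PBO was well above background, so these log2 values are not measured sizes of a fold. Where no other scale is named, the log2 fold changes in the rest of the text keep the brightness without subtraction. This is the processing that the study's methods name, and the sizes are specific to it.

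In PB, a classical inducer of liver cytochrome P450 enzymes, the net signal of miR-96 was 21.9, 15.7 and 36.6 against 5.80, 10.9 and 9.14 in MC set 6. The groups did not overlap, and rat 3 was the highest. The log2 fold change was 0.19 ± 0.05 (limma, adjusted p = 0.00928), at least 1.11-fold higher, with 1 of 3 PB rats and no control rat well above background. In this comparison 3.09% of miRNAs were called. Rats 1 and 2 and the controls were scanned on the same day but on different slides, and within that day the log2 fold change was 0.15 with adjusted p = 0.16. In a fit of PB and its controls alone it was 0.19 (adjusted p = 0.181), and with slide as a fixed block 0.29 (adjusted p = 0.178). Without PB rat 3 it was 0.15 with adjusted p = 0.146, and without rat 1 of MC set 6 it was 0.18 with adjusted p = 0.0547.

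PBO, an inhibitor of cytochrome P450 enzymes used with insecticides, gave net signals of 23.6, 21.4 and 39.2 against 14.0, 10.5 and 20.3 in MC set 5. The log2 fold change was 0.19 ± 0.05 (limma, adjusted p = 0.00502), with all 3 PBO rats and no control rat well above background. As fitted, the brightness was 1.14-fold higher, which is not a bound. The groups did not overlap on either scale, rat 3 stood highest, and without it the log2 fold change was 0.14 with adjusted p = 0.109. Here 8.64% of miRNAs were called. Under the grouping of the value table the log2 fold change was 0.14 (adjusted p = 0.0341), and within the shared scan day it was 0.19 (adjusted p = 0.00513). In a fit of PBO and its controls alone, 6 arrays, it was 0.19 and not called (adjusted p = 0.0922).

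The arrays filed as DES, a synthetic estrogen, gave net signals of 26.5, 15.2 and 57.2 against the same 3 controls, whose highest value was 20.3, so that on this scale the groups overlapped. On the normalized log2 scale they did not, with 7.69, 7.59 and 7.89 against 7.54, 7.51 and 7.57. The log2 fold change was 0.18 ± 0.05 (limma, adjusted p = 0.00285), with 1 of 3 DES rats well above background. As fitted, the brightness was 1.14-fold higher, which is not a bound. Rat 3 carried much of the difference, and without this rat the log2 fold change was 0.10 with adjusted p = 0.101. In this comparison 37% of miRNAs were called. DES and its controls shared no scan day, and with scan day as a block the log2 fold change was 0.17 (adjusted p = 0.163). In a fit of DES and its controls alone it was 0.18 (adjusted p = 0.113), and with slide as a fixed block 0.21 (adjusted p = 0.609).

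The DES result also rests on which arrays are those of DES. With arrays grouped as in the value table, the log2 fold change of DES was -0.09 (adjusted p = 0.232), and DHEA took the rise with 0.18 (adjusted p = 0.00285). Under their own labels, the 3 DHEA rats had a net signal of 16.1, 7.14 and 6.19 against 23.5, 8.05 and 12.8 in MC set 1. The log2 fold change of DHEA, an adrenal steroid precursor, was then -0.05 ± 0.05 (adjusted p = 0.483), and 18.5% of miRNAs were called.

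**Figure D3:**
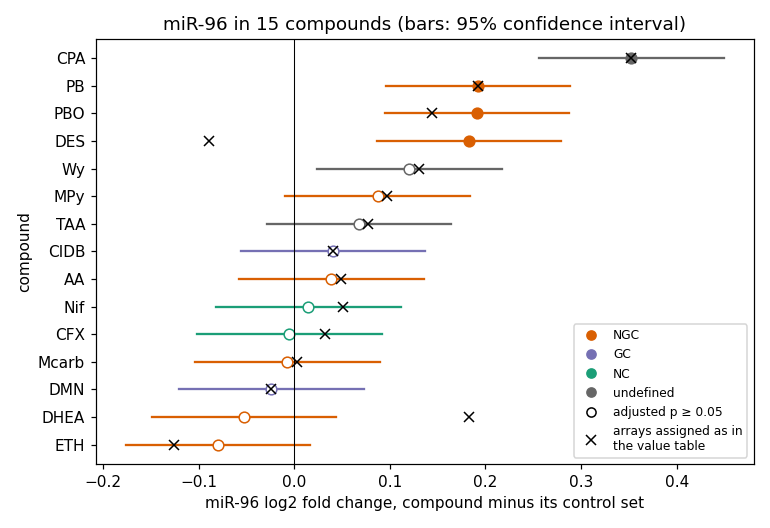
Log2 fold change of miR-96 (compound minus its control set, normalized brightness) in 15 compounds with 95% confidence intervals from limma, filled where adjusted p was under 0.05. Crosses give the value with arrays grouped as in the value table, where DES falls from 0.18 to -0.09 and DHEA rises from -0.05 to 0.18, while CPA stays at 0.35.

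Wy, an agonist of PPARα, came next without being called. The net signal of miR-96 was 29.4, 45.8 and 43.8 in Wy against 23.5, 8.05 and 12.8 in MC set 1, and the log2 fold change was 0.12 ± 0.05 (limma, adjusted p = 0.0565), with 25.9% of miRNAs called. All 3 Wy rats and 1 control rat were well above background, and after normalization Wy rat 1 (7.586) fell just below the highest control (7.589). Without Wy rat 1 the value was 0.16 (adjusted p = 0.0167), and without rat 4 of MC set 1 it was 0.14 (adjusted p = 0.0497). The call was also gained, at 0.12, on leaving out any 1 of CPA rat 1, DES rat 2 or 3, PB rat 2 or 3 and PBO rat 3 (adjusted p from 0.023 to 0.049), rats outside the comparison that enter the shared variance. With slide as a fixed block it turned to -0.03 (adjusted p = 0.982), and Wy shared no slide and no scan day with MC set 1.

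MPy, an antihistamine, and TAA, a liver toxicant activated to a reactive metabolite, had net signals as high as those of PB and PBO. The 3 MPy rats had 32.6, 35.1 and 46.0, and the 3 TAA rats had 26.2, 55.2 and 59.3, all above the 3 rats of MC set 1. After normalization the log2 fold change was 0.09 ± 0.05 in MPy (limma, adjusted p = 0.197) and 0.07 ± 0.05 in TAA (adjusted p = 0.323), with 19.1% and 21.6% of miRNAs called. In both, the normalized values overlapped with those of the controls. With the processed signal scaled to the always detected miRNAs they were called, at 1.22 (adjusted p = 0.00708) and 1.15 (adjusted p = 0.0132). Scaled to all probes they were not, at 0.70 (adjusted p = 0.181) and 0.57 (adjusted p = 0.261), nor in the value table, at 0.76 (adjusted p = 0.104) and 0.59 (adjusted p = 0.255). The 75th percentile net signal of the probes of always detected miRNAs was 694 in TAA and 558 in MPy against 475 in MC set 1. Over all 63 arrays it had a Pearson r of 0.384 with the net signal of miR-96 and of -0.0598 with its normalized value, as a description, and it was 459 in CPA and 302 in PBO. Its part in the result was not tested.

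The remaining NGC showed no call. AA had a log2 fold change of 0.04 (limma, adjusted p = 0.676) with 13.6% of miRNAs called, and Mcarb -0.01 (adjusted p = 0.964) with 2.47% called. ETH, an analogue of methionine, was the lowest at -0.08 ± 0.05 (adjusted p = 0.29), with 16% called. The net signal of ETH rats was 10.1, 4.02 and 5.40, below all 3 rats of MC set 5 on both scales. miR-96 was well above background in no rat of either group. The log2 values of ETH are therefore differences of signal near the background and not sizes of a fold. With the processed signal scaled to the always detected miRNAs, ETH was called lower (log2 fold change -1.05, adjusted p = 0.0343), and under the grouping of the value table it was not (-0.13, adjusted p = 0.0609).

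Among the GC, the log2 fold change of miR-96 was 0.04 in CIDB, an azo dye (limma, adjusted p = 0.567), and -0.02 in DMN, an alkylating nitrosamine (adjusted p = 0.772). Their 95% confidence intervals on this scale ran from -0.06 to 0.14 and from -0.12 to 0.07. miR-96 was detected in no rat of CO set 3 or DMN, so these are differences of brightness near the background and not limits on a fold. These 2 compounds changed many other miRNAs, with 20.4% and 23.5% called. Among the NC, CFX, a cephalosporin, had a value near 0 (log2 fold change -0.0049, adjusted p = 0.988) and Nif, a calcium channel blocker, 0.01 (adjusted p = 0.947), where 0% of miRNAs were called in both. All 6 NC rats had detected miR-96, with net signals from 20.5 to 34.5, and so had their controls, from 27.9 to 30.2.

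The classes were not told apart by miR-96. Over compounds, the mean log2 fold change was 0.07 ± 0.11 (SD) in 8 NGC, against 0.0083 in 2 GC and 0.0049 in 2 NC. NGC exceeded GC by 0.06 (two-sided exact permutation over compounds, p = 0.556) and NC by 0.06 (exact p = 0.489), and the 10 carcinogens exceeded the NC by 0.05 (exact p = 0.591). With 2 compounds in the smaller class the lowest p these tests allow is 0.0222, or 0.0152 for the last, so the tests had little room. Leaving out 1 rat at a time gave values of NGC minus GC from 0.032 to 0.084. With arrays grouped as in the value table, the differences fell to 0.05 for NGC minus GC (exact p = 0.6), 0.015 for NGC minus NC (exact p = 0.889) and 0.0052 for carcinogens minus NC (exact p = 0.924). limma over the same values called 0 of 162 miRNAs in each of the 3 contrasts, that is 0%, and gave 19, 11 and 9 at an unadjusted p under 0.05. The compounds share control sets and are not fully independent. Single NGC ran from -0.08 to 0.19.

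miR-182 and miR-183 did not pass the requirement of detection on at least 1 array and were not tested. In CPA, the net signal of miR-183 was 0.373, 4.73 and 7.56 against -3.20, 3.53 and -3.39 in CO set 4, and that of miR-182 was -3.51, -2.76 and -0.396 against -6.02, -3.90 and -5.59. The values of miR-183 overlapped between the groups, those of miR-182 did not, and all lay below the 95th percentile of the negative control spots of their array. Neither miRNA was well above background on any array, so no fold is given. When all 350 miRNAs were tested with no filter, miR-183 was called higher in CPA (log2 difference of 0.05, limma, adjusted p = 0.0269), where 2.57% of the 350 were called, and miR-182 was called in no compound.

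Although below detection, miR-183 varied with miR-96. Over the 63 arrays, the normalized log2 values of miR-96 and miR-183 had a Pearson r of 0.736, and of 0.726 after the mean of the scan day was removed. For miR-96 and miR-182 these were 0.418 and 0.428, and for miR-182 and miR-183, the pair most alike in sequence, 0.396 and 0.418. Among the 188 miRNAs detected on no array, miR-183 had the highest r with miR-96 and miR-182 the second highest, where the median of the 188 was -0.0069. The values are given as a description. The points share arrays and slides, and probe sequences were not used here. The part of cross-hybridization between the similar mature strands was not tested.

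**Figure D4:**
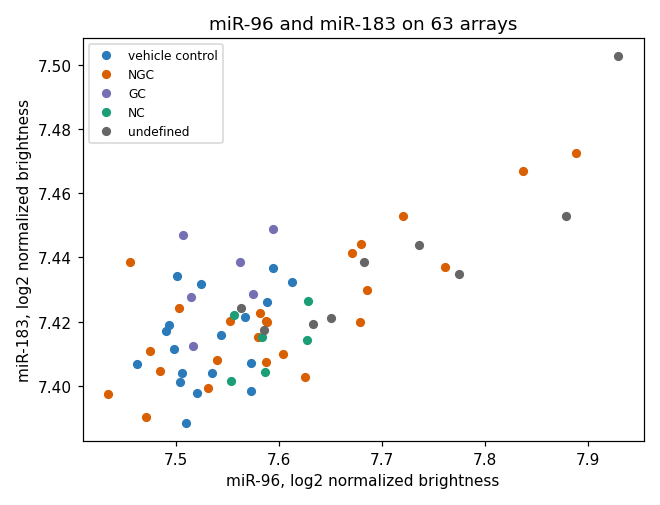
Normalized log2 brightness of miR-96 (horizontal) and miR-183 (vertical) on 63 arrays, coloured by class of compound. The points rise together (Pearson r = 0.736), over about 0.5 log2 units for miR-96 and 0.1 for miR-183.

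Among the 103 other miRNAs detected on at least 32 arrays, those most like miR-96 over the 63 arrays, with the scan day removed, were miR-361 (r = 0.605), miR-29c (r = 0.499) and miR-200b (r = 0.474), and the least like was miR-19b (r = -0.527), a member of the miR-17-92 cluster. miR-361 came first in each of 2 other settings, but the rest of the list changed. Without removal of the scan day, miR-107 was the third (r = 0.47) and miR-181a the least like (r = -0.486), and in the value table miR-107 was the second (r = 0.452) and miR-497 the least like (r = -0.531). The miRNAs most and least like miR-96 were chosen by their likeness on the same arrays, so their calls are not independent of it. In CPA, miR-361 (log2 fold change 0.06, adjusted p = 0.0186) and miR-29c (0.27, adjusted p = 0.0105) rose and miR-19b fell by 0.28 (adjusted p = 0.0319). In PBO, miR-29c rose (0.34, adjusted p = 0.000453) and miR-19b fell by 0.36 (adjusted p = 0.00213), while miR-361 was at 0.04 (adjusted p = 0.143), and in PB none of miR-361, miR-29c and miR-19b passed the test. In DES, miR-361 (0.07, adjusted p = 0.00107) and miR-29c (0.24, adjusted p = 0.00695) were called higher and miR-19b was at -0.01 (adjusted p = 0.924), and in CIDB miR-29c was called higher (0.23, adjusted p = 0.0168) with no call of miR-96. In ETH, where miR-96 was lowest, miR-19b rose (0.45, adjusted p = 0.000111). With arrays grouped as in the value table, the calls of miR-361 and miR-29c in DES were those of DHEA, DES had -0.04 (adjusted p = 0.0702) and 0.0075 (adjusted p = 0.956), and both were called lower in ETH (adjusted p = 0.00479 and 0.0176). For miR-183 the closest were miR-200b (r = 0.55), miR-200a (r = 0.528) and miR-29c (r = 0.448) and the farthest miR-125b-5p (r = -0.343). For miR-182 they were miR-7a (r = 0.265), let-7d (r = 0.249) and miR-27b (r = 0.246), and the farthest miR-19b (r = -0.257), all weak.

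The miR-200 family (miR-200a, miR-200b, miR-200c, miR-141 and miR-429) marks epithelia, in liver the bile ducts, and maintains the epithelial state by repressing ZEB transcription factors. In PB, 3 of its 5 members were called, all higher, where 3.09% of all miRNAs were called, with a median log2 fold change of 0.15 against -0.0042 over all miRNAs tested. miR-200b rose by 0.48, miR-200a by 0.23 and miR-429 by 0.15, and the other two, miR-200c at -0.04 and miR-141 at -0.06, were not called. In PBO, where 8.64% of all miRNAs were called, the same 3 members were called higher, at 0.69, 0.31 and 0.19, with a median over the 5 of 0.19 against -0.0085. In DES only miR-429 was called (0.08, adjusted p = 0.0421), 1 of 5 where 37% of all miRNAs were, and in CPA 0 of 5 were, where 5.56% were, with miR-200b at 0.23 ± 0.09 (limma, adjusted p = 0.114). CIDB had 3 of 5 called higher, where 20.4% of all miRNAs were called, with no call of miR-96. With arrays grouped as in the value table, the same 3 were called in PBO, at 0.66, 0.28 and 0.16, none in DES, and miR-429 in DHEA.

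The summed net signal of the 5 members was from 114 to 257 in PB rats against 76.6 to 166 in MC set 6, from 157 to 256 in PBO rats against 107 to 111 in MC set 5, and from 70.2 to 204 in CPA rats against 44.8 to 99.6 in CO set 4. In CIDB it was from 344 to 382 against 97.4 to 118 in CO set 3. miR-200b was the brightest of the 5 on all 63 arrays, and miR-200c and miR-141 were detected on 27 and 20 arrays. The part of bile duct cells in the result of miR-96 was not tested.

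Of 13 tested markers of other liver and blood cells, 0 were called in CPA, 0 in PB, 1 in PBO and 3 in DES, that is 0%, 0%, 7.69% and 23.1%, against 5.56%, 3.09%, 8.64% and 37% of all miRNAs, so no share was above that of all miRNAs. Of the 4 leukocyte miRNAs on the array (miR-223, miR-142-3p, miR-142-5p and miR-150), 2 were called lower in DES, miR-142-3p by a log2 fold change of -0.52 (limma, adjusted p = 0.000691) and miR-142-5p by -0.08 (adjusted p = 0.0226), and none in CPA, PB or PBO. Of the hepatocyte miRNAs miR-122, miR-192 and miR-194, only miR-192 was called, higher in DES (0.26, adjusted p = 0.00331) and lower in PBO (-0.24, adjusted p = 0.0161). No erythroid (miR-144, miR-451), endothelial (miR-126) or mesenchymal miRNA (miR-143, miR-199a-3p, miR-214, with miR-145 detected on 0 arrays) was called in the 4 compounds. The 2 erythroid miRNAs had a median log2 fold change of 0.51 in PBO and -0.35 in DES without a call, and their part in the result was not tested. With arrays grouped as in the value table, 4 of the 13 were called in PBO, all lower (miR-192, miR-194, miR-150 and miR-143), that is 30.8% against 14.8% of all miRNAs, and the 3 calls of DES were those of DHEA. DES then had 2, miR-192 and miR-194, both lower.

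**Figure D5:**
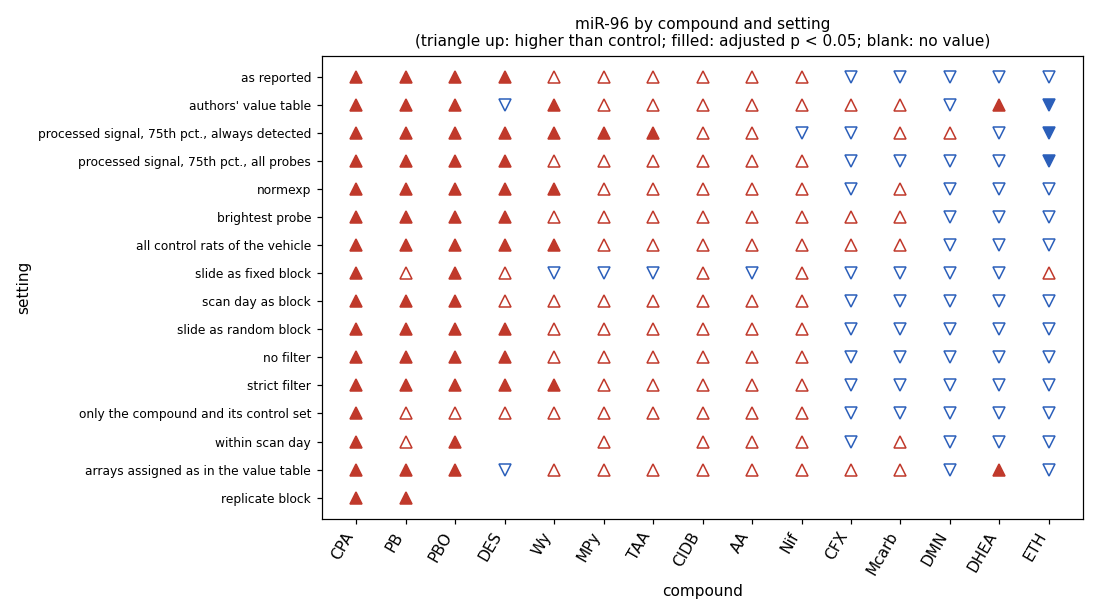
Direction and call of miR-96 in each compound (columns) under each setting (rows), with triangles up for a positive and down for a negative log2 fold change and filled where adjusted p was under 0.05. CPA is filled in all rows, PBO in all but 1 of the settings with a value, and DES and DHEA exchange direction in the 2 rows that use the value table or its assignment.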

How the data were processed

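Livers of 63 rats were profiled on Agilent rat miRNA arrays. The authors deposited scanner files (Feature Extraction 10.7.3.1) with the intensity of each spot, local background, background-subtracted intensity and 0 or 1 marks (other), and a value table of normalized log2 values of 135 miRNAs, which holds miR-96 only of the 3. The labels name RMA for it. The methods name RMA with its background step left out. Column medians ran from 4.49 to 5.01, and columns rose with the log2 background-subtracted total signal of the array followed with slopes from 0.935 to 1.09, against 1.54 to 1.67 on brightness without subtraction, both over the 71 always detected miRNAs. The labels state 25 ng of RNA labelled, the methods a larger amount.

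Control spots and outlier-flagged spots were dropped from the mean intensity, arrays were quantile normalized, spots of a probe averaged, and probes combined by median polish on log2 values. miRNAs detected on at least 1 array were tested, 162 of 350 (71 on all arrays), with limma 3.58.1 in R 4.3.3 over 63 arrays in 21 groups, and Benjamini-Hochberg adjustment. A fold is a bound where all arrays of the dimmer group were not well above background, set by the higher of the miRNA's own value and the lowest well measured one on each array, and precision is limited by the number of arrays. For miR-96 in PBO and DES this left the fitted fold unchanged, so it is given as fitted and not as a bound. The script was tested on simulated data. Named were the 3 members, the 3 most and 1 least correlated miRNAs of each, and a fixed list of the miR-200 family. Rats are the replicates, and p-values measure the spread between them. The members and lists were chosen with earlier results of these data known. Alternatives were the value table, processed signals scaled by a 75th percentile over the probes of always detected miRNAs (floor 0.01) or over all probes (floor 0.5), normexp (offset 50), the brightest probe, pooled vehicle controls, slide or scan day as a block, values within a scan day, 2 other filters, fits of 1 compound, a replicate block, arrays grouped as that table has them, and each rat left out. Numbers shared by PB and MC set 6 and by CPA and CO set 4 were tested as pairs.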

Additional observations from a re-analysis of the deposited data

Results flagged for a closer look

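Among the 6 corn oil control rats, rat 6 of CO set 3 had the highest log2 value of miR-96, 7.59, against 7.49 to 7.53 in the other 5. The gap to the next rat was 0.671 of the range, where chance flags about 1 in 20 groups of this kind. Without this rat the log2 fold change of DMN was 0.0049 in place of -0.02, and it was called in neither case.

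miR-183, which was detected on 0 arrays and stood outside the comparisons, had a log2 difference of 0.0524 in brightness between CPA and CO set 4 when all 350 miRNAs were tested (limma, adjusted p = 0.0269), with 2.57% of miRNAs called. The 3 CPA rats had 7.43, 7.45 and 7.50 and the 3 rats of CO set 4 had 7.40, 7.43 and 7.40, so that the lowest CPA rat lay just above the highest control. It was not well above background on any of these arrays, so the difference is one of brightness at background level and no fold. miR-182 had a difference of 0.03 in the same fit (adjusted p = 0.0813). In the other 14 compounds neither was called, and the lowest adjusted p was 0.109, for miR-183 in DES.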

How the results depend on the processing

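The log2 fold change of miR-96 was recomputed in 213 further fits of a compound under 16 settings. In 174 of them it kept its direction and its side of the threshold, in 7 a call was lost, in 10 a call was gained and in 22 the sign turned. The rise in CPA was called in all of its alternatives. Causes of the changes below were not tested. DES, TAA and Wy have no value within a scan day, since they share none with their controls. The signal over background limits all of these, since miR-96 was well above background on 26 of 63 arrays.

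Calls were lost in DES with slide as a fixed block (0.21) and scan day as a block (0.17), in PB with slide as a fixed block (0.29) and within a scan day (0.15), and in fits of 1 compound with its control set, which hold 6 arrays, in DES (0.18), PB (0.19) and PBO (0.19). Calls were gained in ETH, lower and with signal near the background, in the value table (-0.89) and with the processed signal scaled to always detected miRNAs (-1.05) or to all probes (-1.22). They were gained in Wy in the value table (0.95), with the processed signal scaled to always detected miRNAs (1.21), with normexp (0.23), with all control rats of the vehicle (0.13) and with the stricter filter (0.12), and in MPy (1.22) and TAA (1.15) with the processed signal scaled to always detected miRNAs.

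The sign turned in the value table for CFX (0.33), DES (-0.67), DHEA (1.12, called) and Mcarb (0.0022), and with its assignment of arrays alone for CFX (0.032), DES (-0.089), DHEA (0.18, called) and Mcarb (0.0027). With slide as a fixed block it turned for AA (-0.093), ETH (0.053), MPy (-0.010), TAA (-0.081) and Wy (-0.028). It turned with the processed signal scaled to always detected miRNAs for DMN (0.11), Mcarb (0.10) and Nif (-0.011), with normexp for Mcarb (0.0019), with the brightest probe for CFX (0.0042) and Mcarb (0.0011), with all control rats of the vehicle for CFX (0.041) and Mcarb (0.0020), and within a scan day for Mcarb (0.032). Except for DES, with its call lost, and DHEA, these changes of sign were between values that passed no test.

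The number of compounds in which miR-96 was called higher, 4, became 7 with the processed signal scaled to always detected miRNAs, 1 in fits of 1 compound with its control set, 2 with slide as a fixed block, 2 of the 12 compounds with a value within a scan day, and 2, of 4 compounds left, without the groups in which the value table and the scanner files disagree, an alternative chosen after seeing the data. The number with miR-96 called lower, 0, became 1 in the value table and 1 with either scaling of the processed signal. In the value table the carcinogens minus the NC came to -0.050 and the NGC minus the NC to -0.0062 (log2), a change of sign. The range between the highest and lowest group, CPA and ETH in each case, was 0.40 (log2), 2.66 in the value table and 2.87 with the processed signal scaled to always detected miRNAs. miR-96 was detected in no ETH rat, so these are ranges of signal and not sizes of a fold.

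Leaving out each rat in turn kept direction and call in 927 of 945 values. The value ranged from -0.029 to 0.0095 in CFX, from -0.047 to 0.0049 in DMN, from -0.031 to 0.014 in Mcarb, from 0.10 to 0.25 in DES, from 0.15 to 0.24 in PB, from 0.14 to 0.22 in PBO and from 0.086 to 0.16 in Wy. With direction and call unchanged, it ranged from 0.019 to 0.059 in AA, from 0.018 to 0.069 in CIDB and from 0.044 to 0.11 in MPy. The same held in Nif, from 0.000655 to 0.029, and in DHEA, from -0.075 to -0.032. PB with MC set 6 and CPA with CO set 4 share replicate numbers. Same-numbered rats had correlations of deviations from 0.0451 down to -0.258, so no pairing was seen, though so few rats cannot exclude it. With the replicate block the log2 fold change stayed at 0.19 in PB (limma, adjusted p = 0.0089) and 0.35 in CPA (adjusted p = 1.17e-06), and 6 and 8 miRNAs were called in place of 5 and 9.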
